A study of Oncorhynchus mykiss with 72 samples.

Results

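The change in gill RNA between day 1 and day 3 at 28 °C was measured in 3 strains of redband trout (Oncorhynchus mykiss). These were Little Jacks (LJ, from a desert creek), Keithly (K, from a montane creek) and their F1 cross (LJxK). The comparison uses every library of the 28 °C treatment on those days, 3 per strain and day, so 18 of the 72 libraries of the study. The same days at 15 °C, the control temperature, served as background with another 18 libraries. Changes were taken within each strain, over the 23234 transcript features present in the tables of all 3 strains. According to the deposited library table, 3 fish from 1 rearing tank were pooled for each library, so p-values measure the spread between pools. For the cross on day 1 at 28 °C, the sample descriptions point to the LJ table, but its columns are found in the cross's own table, and the columns were followed.

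The gill exchanges gas and ions with the water and is in direct contact with its temperature. In fish, as in other animals, acute heat activates heat shock transcription factors, and transcripts of chaperones, which refold or hold damaged proteins, rise within hours. This first wave usually subsides while other programmes of protein turnover and metabolism adjust. Of the 23234 identifiers, 0 matched RefSeq's gene names, and the files pair none with a gene. No chaperone or cell type marker could therefore be named, and only the ribosomal RNA features, which the files name, have a known role. Fewer cells of a type and less RNA per cell cannot be told apart in such whole-tissue samples.

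Values are the authors' normalised read signal, in which reads were divided by an effective rather than a total library size. Changes are day 3 minus day 1 on the log2(value + 0.5) scale, which understates changes of low features. Recovered reads ran from 3.34 to 13.1 M (mega) in the 18 libraries at 28 °C, with a median of 9.09 M, and from 0.614 to 13.4 M at 15 °C. LJ day 1 replicate 1 stood apart from the other libraries. It was the shallowest at 28 °C, and it carried a loading of 0.76 on the first component of the spread within groups, which held 35.5% of that spread. The main counts, the lists and the agreement between strains are given with and without it.

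Many features had a different level on day 3 than on day 1, in both directions. In the pooled test, with strain as a block, 7324 features passed (limma, Benjamini-Hochberg adjusted p under 0.05), 31.5% of those tested. Of these, 3718 rose (16%) and 3606 fell (15.5%). Without LJ day 1 replicate 1 the count was 7866, with 3945 higher and 3921 lower. On the authors' scale, large changes were more often falls. Among the features that passed, 634 rose by 2-fold or more and 1171 fell by as much, and the counts were 28 and 169 at 4-fold and 1 and 26 at 8-fold. With reads scaled to the column total this balance turned, to 3072 against 408 at 2-fold and 117 against 69 at 4-fold, and at 8-fold the counts were 5 and 7.

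The balance of rises and falls turned under column-total scaling, but not under the other scalings tried. With TMM factors, another way to set an effective library size, 3857 features were higher and 3504 lower. By 2-fold or more 613 rose and 1088 fell, and by 4-fold 25 and 164. With median-of-ratios size factors 3710 were higher and 3633 lower, with 590 and 1122 at 2-fold and 25 and 165 at 4-fold. The authors' columns summed to between 1.29 and 1.60 M units on day 1 and between 0.971 and 1.10 M on day 3, and the divisor was not the column total. When reads were scaled to the column total instead, 13170 features passed, 11988 higher and 1182 lower. On that scale the median change of all features was 0.48, against -0.02 on the authors' scale. On the authors' scale the falls were the longer tail, with the lowest 5% of changes under -1.05 and the highest 5% over 0.83. Scaled to the column total the bounds were -0.55 and 1.30. Relative to the median of all features, the bounds were -1.04 and 0.84 on the authors' scale and -1.03 and 0.82 on the other. Rescaling moves all features of a library by the same factor, so this likeness follows from it and is no separate check. The turned counts go with the shift of that median.

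**Figure D1:**
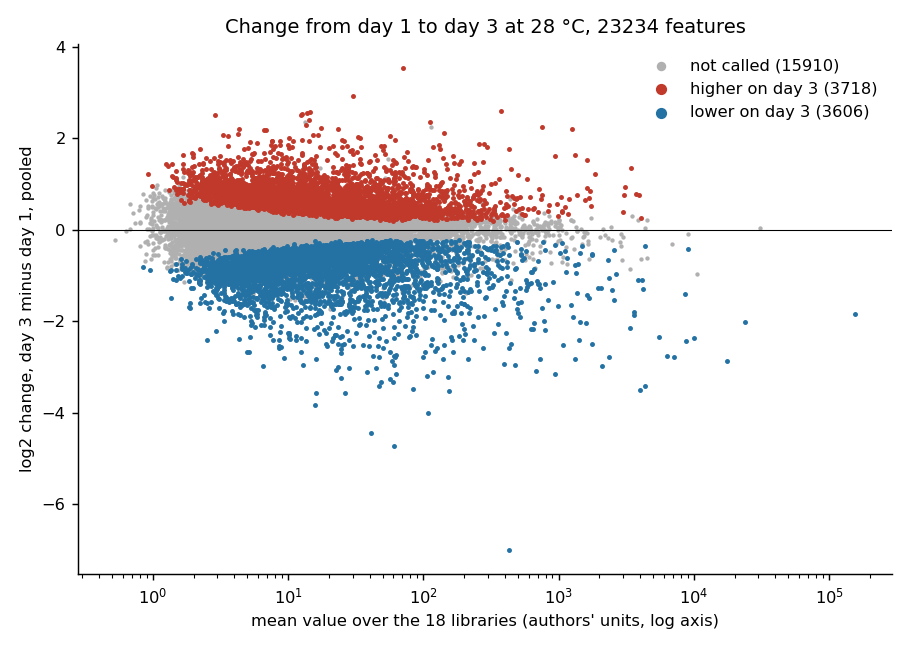
Log2 change from day 1 to day 3 at 28 °C against the mean value over the 18 libraries, 1 point per feature; colours mark features that passed the pooled limma test. The points below zero reach further than those above it, down to -7.00 against 3.53, and the most abundant called features lie mainly below it on this, the authors', scale.

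On the authors' scale, the features with a mean over 500 units fell more often than they rose. Among the 283 features with a mean over 500 units, 92 fell (32.5%) and 45 rose (15.9%), with median changes of -1.28 and 0.68. With the shift under column-total scaling, 66 were lower and 150 higher. Among the 2761 features between 50 and 500 units the shares were close to each other, 24.3% lower and 25.9% higher. So were those of the 13367 features between 5 and 50 units, 17.1% lower and 18.1% higher. Of the 501 features that the files name singletons, 72 fell (14.4%, beside 15.5% of all features) and 32 rose (6.39%, beside 16%).

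The control fish showed little of this after adjustment. At 15 °C the same test between the same days called 72 features, 0.31% of those tested, with 68 higher (0.293%) and 4 lower (0.0172%), while 2022 had an unadjusted p under 0.05. By strain, 4 features passed in each, but 3760 had an unadjusted p under 0.05 in the cross, against 664 in LJ and 512 in K. Where nothing differs, a share of 0.05 of the tests passes that unadjusted cut on average. The control libraries were also shallower, with a median of 5.85 M reads, and the cross holds the 1 with 0.614 M. The day change at 28 °C differed from that at 15 °C in 3561 features (limma, adjusted p under 0.05), 15.3% of those tested, with 1833 higher (7.89%) and 1728 lower (7.44%) at 28 °C. Scaled to the column total, that split was 9212 higher and 704 lower.

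The largest fall was that of g10530, a feature with no gene name in the files. On day 1 at 28 °C its values were 590, 1015 and 698 in LJ, 999, 934 and 855 in the cross, and 715, 937 and 867 in K. On day 3 they were 5.10, 8.58 and 6.68 in LJ, 11.1, 4.62 and 7.07 in the cross, and 4.72, 11.7 and 1.49 in K. The highest day 3 value was thus far below the lowest day 1 value, and the days did not overlap in any strain. The pooled change was -7.00 (SE 0.25; limma adjusted p = 7.0e-13), with -6.71 in LJ, -6.92 in the cross and -7.37 in K. At 15 °C the means stayed between 2.46 and 3.09 units on both days, and the pooled change there was 0.17 (adjusted p = 0.88). Against 15 °C, the day 1 difference was 8.10 to 8.25 in the 3 strains, and the day 3 difference was 0.63 to 1.28 and passed in none. In the cross, replicate 1 of the day 3 controls held only 3 reads of g10530. On day 7 at 28 °C its means were 5.30, 15.4 and 14.8 units in LJ, the cross and K, far below the day 1 values. In the same order, the day 3 means at 28 °C were 6.79, 7.61 and 5.98. The day 7 controls had means of 2.94, 2.84 and 4.58, and day 7 was not tested.

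The second largest fall was that of g18929, also without a gene name. Its day 1 values were 54.6, 129 and 122 in LJ, 137, 205 and 121 in the cross, and 67.2, 121 and 95.2 in K. On day 3 its values lay between 3.91 and 6.78 in LJ, between 2.62 and 4.78 in the cross, and between 1.77 and 3.29 in K, again with no overlap. It fell by 4.72 in the pooled test (SE 0.22; limma adjusted p = 8.66e-12). On day 3 its means were 5.46, 4.00 and 2.42 units in LJ, the cross and K, against 2.77, 2.81 and 3.90 in the controls. The difference from 15 °C on day 3 was 0.88 in LJ, 1.06 in the cross and -0.57 in K, none of which passed. The day 3 controls of the cross were 0, 2.28 and 6.16 units, and the 0 is from a library of 0.614 M reads. Both features thus passed against 15 °C on day 1 in each strain and in none on day 3.

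The largest rise was that of g24998, for which the files give no gene name either. On day 1 at 28 °C it stood at 14.8, 5.15 and 9.46 in LJ, 4.98, 9.47 and 12.7 in the cross, and 9.02, 16.9 and 13.8 in K. By day 3 it stood at 75.0, 99.7 and 65.9 in LJ, 139, 121 and 216 in the cross, and 196, 159 and 96.5 in K. Every day 3 value was above every day 1 value. The pooled rise was 3.53 (SE 0.23; limma adjusted p = 6.27e-10). On day 1 it did not pass against 15 °C in any strain (differences of -0.32 to 0.14), whereas on day 3 it was higher by 2.43 in LJ, 3.71 in the cross and 4.00 in K (each adjusted p at or under 8.88e-05). Its course was the reverse of that of g10530 and g18929, with the difference from the controls on the later day. As g24998 was named for its rise between these days, this course too is partly set by the choice.

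The other named rise, singleton_rep_c77, started and ended at different positions against the controls in the 3 strains, which were not tested against each other in this. Its LJ values on day 1 at 28 °C were 1.92, 1.91 and 1.81, those of the cross 8.72, 11.6 and 8.13, and those of K 11.9, 8.46 and 9.27. The LJ values rest on 4, 10 and 9 reads. On day 3 they were 21.2, 38.6 and 14.4 in LJ, 45.9, 86.3 and 68.4 in the cross, and 65.4, 77.8 and 64.5 in K. The days did not overlap in any strain. The day change was 3.29, 2.72 and 2.76, and pooled it was 2.93 (SE 0.17; limma adjusted p = 2.11e-10). Against 15 °C the day 1 difference was -3.67 in LJ and -1.71 in K, both of which passed, and -0.41 in the cross, which did not. On day 3 the difference was -0.52 in LJ, 3.22 in the cross and 1.09 in K, and of these the cross alone passed (adjusted p = 2.07e-05). On day 3 the LJ mean was 24.7 units beside 34.0 in its controls, and the mean of the cross was 66.9 units beside 7.80. Replicate 1 of those controls of the cross stood at 2.69 units from only 2 reads.

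**Figure D2:**
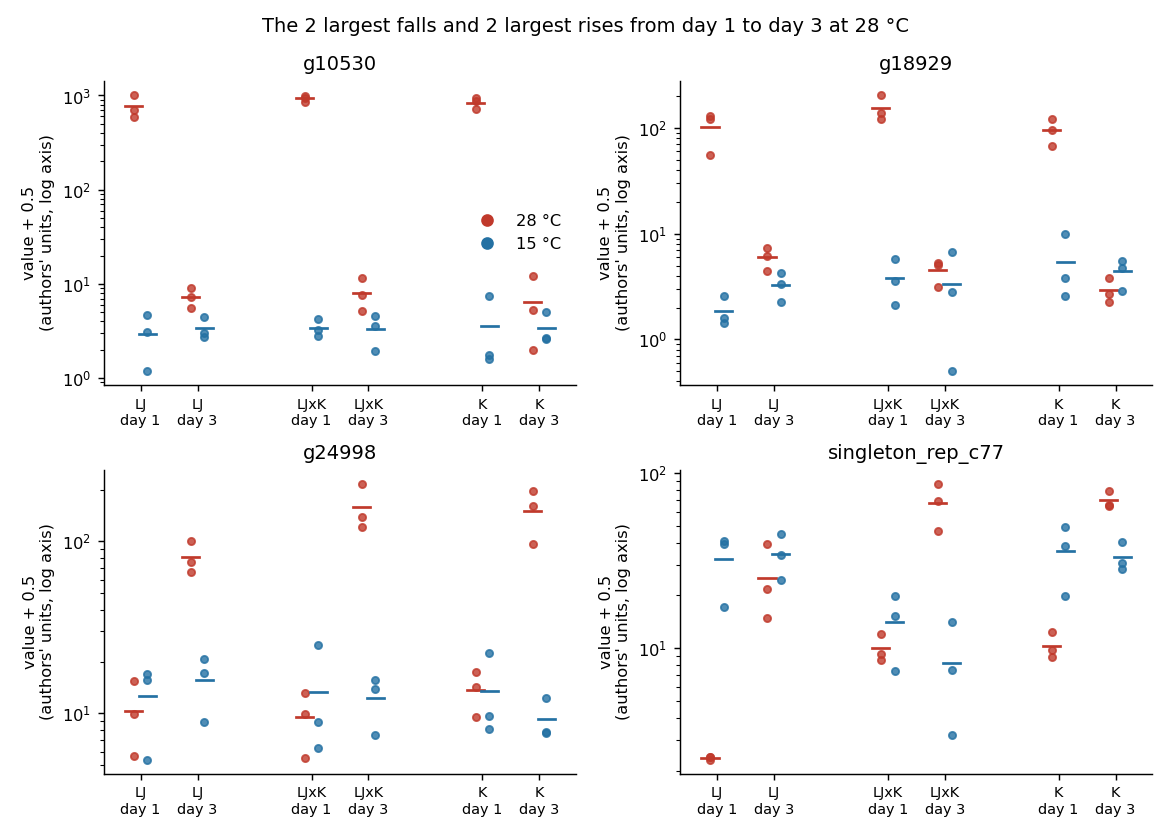
Values of the 4 named features in each library (points; lines are means of 3) at 28 °C and 15 °C on days 1 and 3, by strain, as value + 0.5 on a log axis. In g10530 and g18929 the 28 °C points come down toward the 15 °C points by day 3; in g24998 they rise above them.

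Both 28S ribosomal RNA features fell in the pooled test, under every scaling tried. Ribosomal RNA is the structural and catalytic core of the ribosome; 18S and 28S belong to the cytosolic ribosome and 12S and 16S to the mitochondrial one. Of 9 such features, 4 fell in the pooled test and none rose, where 15.5% of all features fell and 16% rose. The first 28S feature changed by -1.30 (SE 0.28; limma adjusted p = 0.00118) and the second by -1.59 (SE 0.44; adjusted p = 0.00853). Values of the first 28S feature in LJ were 3005, 12909 and 16842 on day 1 and 2802, 2014 and 1895 on day 3, so much of its change in LJ lay in day 1 replicates 2 and 3. In K they were 5774, 7037 and 4028, then 1839, 2604 and 2619, with no overlap, and in the cross the days overlapped. Taken by strain, both 28S features passed in LJ (limma adjusted p = 0.00853 and 0.0202) and neither passed in the cross or in K. At 15 °C each changed by -0.56 in the pooled test, which did not pass (limma adjusted p = 0.493 and 0.605). Neither 28S feature passed the test of a difference between its day changes at 28 °C and 15 °C (differences of -0.74 and -1.03).

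The other 2 ribosomal features that fell were mitochondrial, and their calls were fragile. One 12S feature changed by -0.45 (adjusted p = 0.0293) and 1 16S feature by -0.54 (limma adjusted p = 0.0478), with calls in 22 and 10 of 28 alternative settings; under column-total scaling that 12S change was 0.094 and the change of a further 12S feature, -0.30 on the authors' scale (adjusted p = 0.171), was 0.24. The 18S feature changed by -1.20 and did not pass (adjusted p = 0.0622). The libraries were depleted of ribosomal RNA, so these are levels of what depletion left, and its part in these changes was not tested.

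Each strain taken alone showed the same kind of change. In LJ 1625 features rose (6.99%) and 1467 fell (6.31%), together 13.3% of those tested (limma, adjusted p under 0.05). In the cross 1061 rose (4.57%) and 1331 fell (5.73%), together 10.3%. In K 902 rose (3.88%) and 1499 fell (6.45%), also 10.3%. The LJ balance of rises and falls depended on the fit: edgeR gave 1542 higher and 2282 lower, and limma on the 6 LJ libraries alone gave 267 and 466. In the cross, limma gave 1949 and 2214 on its 6 libraries alone, together 4163, but 1404 in all on its 24 libraries of both temperatures and all days. On the authors' scale, called changes of 4-fold or more lay mainly among the falls, 202 against 85 in LJ, 190 against 44 in the cross and 244 against 24 in K. Scaled to the column total, called 4-fold falls and rises numbered 63 and 297 in LJ, 86 and 163 in the cross, and 105 and 116 in K. Without LJ day 1 replicate 1 the LJ counts were 1553 higher and 1521 lower, and the totals were 3095 in the cross and 3195 in K, since the 3 strains share 1 estimate of the spread. Scaled to the column total, the splits of all calls were 8053 higher and 575 lower in LJ, 5511 and 646 in the cross, and 5599 and 681 in K.

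Counts in single strains rested on few libraries. The LJ total of 3092 was 1914 without day 3 replicate 2 and 1897 without day 3 replicate 3. The total of 2392 in the cross was 1526 without day 1 replicate 3, 1353 without day 3 replicate 2 and 1572 without day 3 replicate 3. In K the total of 2401 was 1387 without day 1 replicate 2 and 1490 without day 1 replicate 3. The order of the 3 totals is therefore not read as a difference between strains.

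On the authors' scale, a larger share of the falls than of the rises was called in all 3 strains, a difference that was not tested. All 3 strains called 792 features lower, which is 54.0% of the LJ falls, 59.5% of those in the cross and 52.8% of those in K. They called 425 features higher, 26.2%, 40.1% and 47.1% of the respective rises. The share of features whose 3 day 3 values lay beyond the 3 day 1 values in every strain was 5.07% upward (1178) and 5.71% downward (1326). Across the 23234 features, the changes of LJ and the cross had a Pearson r of 0.70, those of the cross and K 0.68, and those of LJ and K 0.54. These correlations are over features and are given as a description. Without LJ day 1 replicate 1 they were 0.70, 0.68 and 0.54, and all 3 strains called 950 features lower and 503 higher. The features lying apart in every strain then numbered 1351 upward (5.81%) and 1641 downward (7.06%). No feature went from over 3 reads in all 9 libraries of 1 day to 3 reads or fewer in all 9 of the other.

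**Figure D3:**
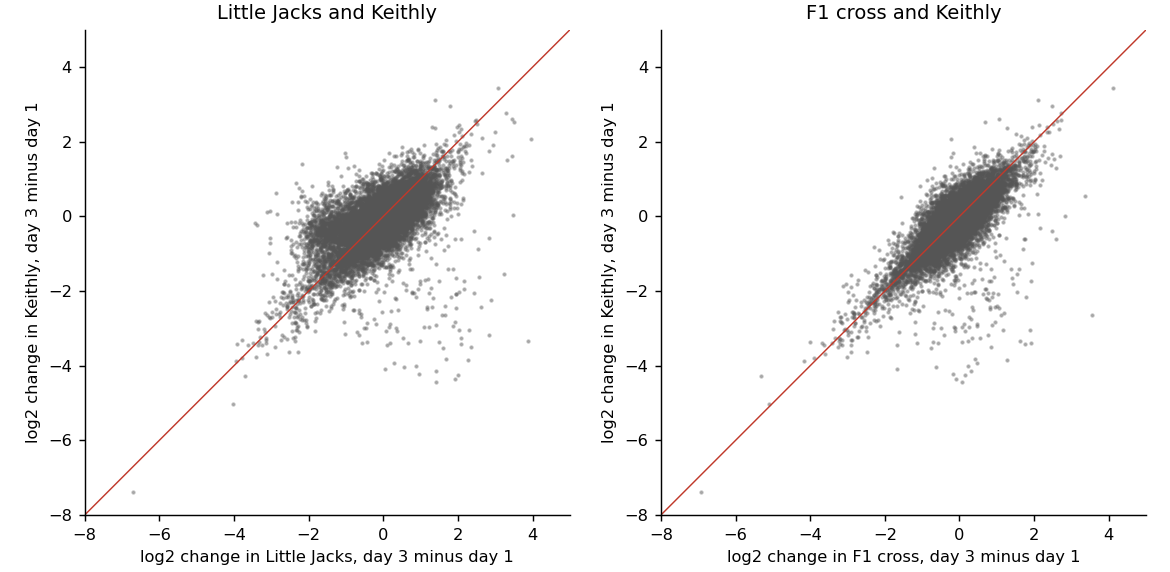
Log2 change from day 1 to day 3 at 28 °C in 1 strain against another, 1 point per feature with a mean of at least 5 units (16411 features); the line marks equal change. Within 1 of the line lie 91.5% of the points for LJ and K (Pearson r of 0.61) and 97.2% for the cross and K (0.76). Most changes were small in each strain, so many points lie near the line whether or not strains are alike. Over all 23234 features, the lowest and highest 5% of changes lay beyond -1.41 and 1.07 in LJ. These bounds were -1.06 and 0.92 in the cross and -1.27 and 0.90 in K. The LJ minus K difference was 0.66 for g10530 and 0.98 for g18929.

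No feature passed a test of a difference between strains in the day change. The count was 0 for LJ minus K, for LJxK minus K and for LJ minus LJxK by limma, and it was 0 by edgeR as well. At an unadjusted p under 0.05 the limma counts were 1717, 611 and 815. Where nothing differs, a share of 0.05 of the 23234 tests passes that cut on average, so nothing is read from these counts. The median half-width of the 95% interval of a difference was 0.97 over all features and 0.80 over features with a mean of at least 5 before adjustment. Among the named features, the fall of g18929 was smaller in LJ than in the cross by 1.07 (95% interval 0.06 to 2.08, limma adjusted p = 0.999) and smaller in LJ than in K by 0.98 (-0.03 to 1.99). For g10530, LJ minus K was 0.66 (95% interval -0.65 to 1.98), and for g24998 LJ minus the cross was -1.04 (-2.17 to 0.09). For singleton_rep_c77 LJ minus the cross was 0.57 (-0.30 to 1.44). Each was the largest of the 3 differences of its feature. LJ day 1 replicate 1 held the lowest LJ value of g18929 on that day at 28 °C, 54.6 against 129 and 122. Its value of g24998 was the highest, 14.8 against 5.15 and 9.46. These differences are not given without that library.

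Features chosen by their change in the cross were then followed in the parental strains. The parental libraries entered the choice through the shared estimate of the spread, so the calls in the parents are not independent of it. In the cross 924 features passed the test with a fall of 2-fold or more, out of 1344 with such a fall whether called or not. In LJ their median change was -1.31, with 915 of them below zero and 717 called lower; in K it was -1.37, with 918 below zero and 739 called. Over all features the median was 0.01 in LJ and -0.03 in K, and 6.31% and 6.45% were called lower. None was called in the opposite direction in either parent. When each strain was fitted on its own 6 libraries, an alternative added after seeing the data, the cross chose 1175 features. Their median was -1.25 in LJ, with 1150 below zero and 401 called lower (2.01% of all features), and -1.30 in K, with 1157 and 759 (5.54%). For the list of 924 features, the median day change at 15 °C was 0.02 in LJ and 0.01 in K.

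Against the controls, and on the authors' scale, these 924 features were high on day 1 and nearer the controls on day 3. Their median difference from 15 °C went from 1.65 to 0.35 in LJ and from 1.78 to 0.39 in K. In LJ 442 of the 924 (47.8%) went from at least 2-fold above the controls to within 2-fold of them, as 8.49% of all features did in that strain. Another 219 (23.7%, beside 2.79% of all features) were at least 2-fold above on both days, and 201 (21.8%, beside 75.2%) were within 2-fold on both. In K the numbers were 417 (45.1%, beside 5.42% of all features), 260 (28.1%, beside 2.59%) and 148 (16.0%, beside 77.7%). Those that went from within 2-fold of the controls to at least 2-fold below them were 51 in LJ (5.52%, beside 3.13% of all features) and 83 in K (8.98%, beside 5.19%). On the authors' scale, most of the list thus started at least 2-fold above the controls in both parents. The authors' columns on day 1 at 28 °C summed to between 1.29 and 1.60 M units. Those of the controls on days 1 and 3 summed to between 0.819 and 0.917 M. How many features would lie 2-fold above the controls under column-total scaling was not tested.

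The 534 features that passed in the cross with a rise of 2-fold or more, out of 909 with such a rise, moved the other way. Their median change was 1.12 in LJ, with 524 above zero and 358 called higher, and 1.01 in K, with 522 and 296; 6.99% and 3.88% of all features were called higher in those strains. Their median difference from 15 °C went from -0.60 to 0.35 in LJ and from -0.67 to 0.26 in K. Chosen and measured with each strain's own 6 libraries, 767 features had a median of 1.06 in LJ, with 739 above zero and 154 called higher (1.15% of all features), and of 0.94 in K, with 733 and 293 (2.99%). In LJ 291 of the 534 (54.5%, beside 75.2% of all features) were within 2-fold of the controls on both days. There, 130 (24.3%, beside 6.39%) moved from at least 2-fold below to within 2-fold, and 77 (14.4%, beside 2.21%) from within 2-fold to at least 2-fold above. In K the numbers were 287 (53.7%, beside 77.7%), 154 (28.8%, beside 4.86%) and 61 (11.4%, beside 1.84%). On the authors' scale, a median below the controls on day 1 and above them on day 3 held in both parents. The authors' columns on day 3 at 28 °C summed to between 0.971 and 1.10 M units. Those of the controls on days 1 and 3 summed to between 0.819 and 0.917 M. Where these medians lie under column-total scaling was not tested.

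Without LJ day 1 replicate 1, the LJ median change was -1.42 for the list that fell and 1.08 for the list that rose, and the day 1 differences from 15 °C were 1.78 and -0.54. Of the 924, 453 then went from at least 2-fold above the LJ controls to within 2-fold (6.08% of all features did), 219 stayed above (2.65%), 190 were within on both days (75.1%) and 50 went from within to below (2.81%). Of the 534, 280 were within on both days, 134 moved up to within 2-fold (8.81% of all features) and 74 from within to at least 2-fold above (2.32%).

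**Figure D4:**
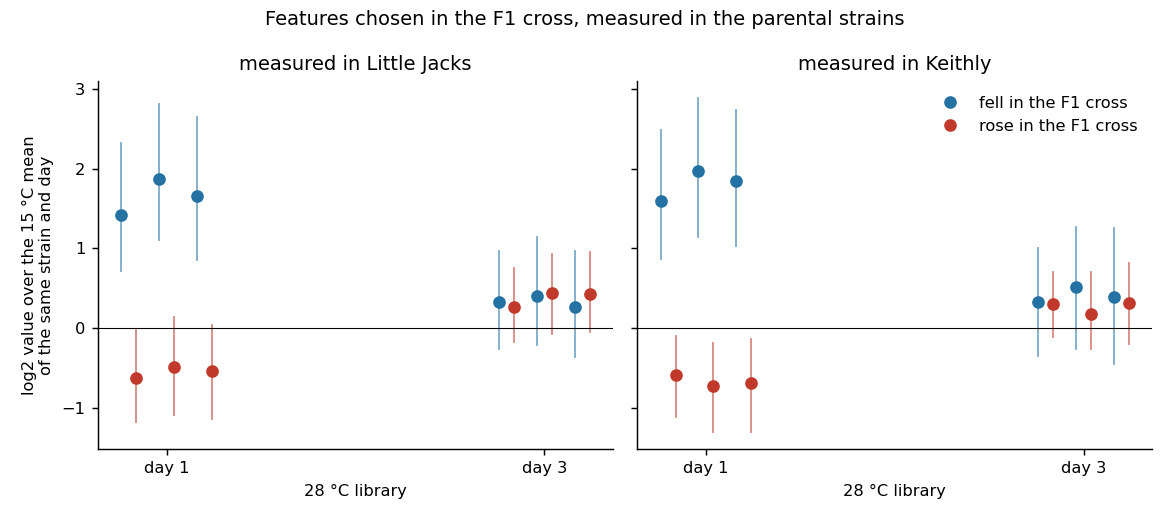
Median (points) and interquartile range (lines) of the log2 value over the 15 °C mean of the same strain and day, for the 924 features that fell and the 534 that rose in the F1 cross, in each 28 °C library of LJ and K. On the authors' scale, the medians lie on opposite sides of zero on day 1. The range of the list that rose nevertheless crosses zero in LJ replicates 2 and 3. All medians lie between 0.18 and 0.52 on day 3, on the same scale.

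The share of reads held by these lists differed between the days. The 924 features held 20.8, 39.4 and 35.1% of reads in the LJ libraries on day 1 (31.8% ± 9.72, SD, n = 3) and 14.3% ± 1.89 on day 3. In K the share went from 40.9% ± 5.22 to 15.9% ± 2.13 (SD, n = 3). At 15 °C it was 4.22% on day 1 and 4.28% on day 3 in LJ, and 4.52% and 5.18% in K. A few abundant features carried much of this share. Of the 10 most abundant features of the cross on day 1, 7 were in the list. Without these 7, a calculation added after seeing the data, the other 917 held 11.6% ± 2.99 on day 1 and 5.29% ± 0.38 on day 3 in LJ, and 13.8% ± 0.68 and 5.83% ± 0.22 in K (SD, n = 3). Their 15 °C shares were 4.17% and 4.25% in LJ and 4.47% and 5.13% in K. The 534 features went from 1.24% ± 0.14 to 4.50% ± 0.27 in LJ and from 1.27% ± 0.17 to 4.04% ± 0.25 in K (SD, n = 3). Their 15 °C shares were between 3.24% and 3.60%, so they went from under the control share to over it. The low value of 20.8% is that of LJ day 1 replicate 1; without it the LJ day 1 mean was 37.2%.

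The libraries themselves became less dominated by a few transcripts. The 10 most abundant features of each library held 28.3% ± 1.52 of reads in LJ on day 1 and 15.3% ± 1.43 on day 3, 31.0% ± 3.83 and 14.0% ± 3.09 in the cross, and 31.0% ± 4.63 and 16.0% ± 1.48 in K (SD, n = 3). All 9 day 1 libraries were above all 9 day 3 libraries, each measured by its own 10 features. The mean difference over strains was -15.0 percentage points (exact permutation of days within strains, two-sided, p = 0.00025, the smallest that 8000 assignments allow; adjusted over 5 library measures, 0.00125). At 15 °C it was -0.96 points (exact permutation p = 0.022, adjusted 0.04), with shares between 7.10% and 10.6%. The same single feature was the most abundant in all 18 libraries at 28 °C. It held between 7.96% and 22.4% of reads on day 1 and between 3.21% and 8.97% on day 3. LJ day 1 replicate 1 had the 7.96%, which lies within the day 3 range. In that library, the 10 features most abundant in the cross on day 1 held 15.2% of reads. That set held 29.7% and 24.6% in LJ day 1 replicates 2 and 3, against 12.4% to 16.0% in LJ at day 3. For K its share was 25.5% to 34.1% at day 1, then 13.6% to 16.4%. The 27.2% in the own 10 features of LJ day 1 replicate 1 thus came in part from other features.

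The other library measures did not pass at 28 °C after adjustment, but for depth and matching the mean over strains joins opposite directions. The nuclear ribosomal share changed by -0.25 points (exact permutation p = 0.0235, adjusted 0.0588) and the mitochondrial ribosomal share by 0.01 points (exact permutation p = 0.687). Mean recovered reads went from 6.15 to 10.0 M in LJ, from 11.8 to 8.36 M in the cross and from 11.4 to 6.42 M in K. Averaged over strains they changed by -1.49 M at 28 °C (exact permutation p = 0.309) and by -2.77 M at 15 °C (exact permutation p = 0.021, adjusted 0.04). The authors' percent of reads matched to the transcriptome went from 23.1 to 30.2 in LJ, from 40.9 to 26.1 in the cross and from 40.3 to 24.4 in K. For both measures the days did not overlap in any strain, with day 3 higher in LJ and lower in the cross and K. Averaged over strains the matched percent changed by -7.90 points at 28 °C (exact permutation p = 0.06, adjusted 0.1) and by -8.66 points at 15 °C (exact permutation p = 0.024, adjusted 0.04). The part of depth and matching in the 28 °C result was not tested.

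**Figure D5:**
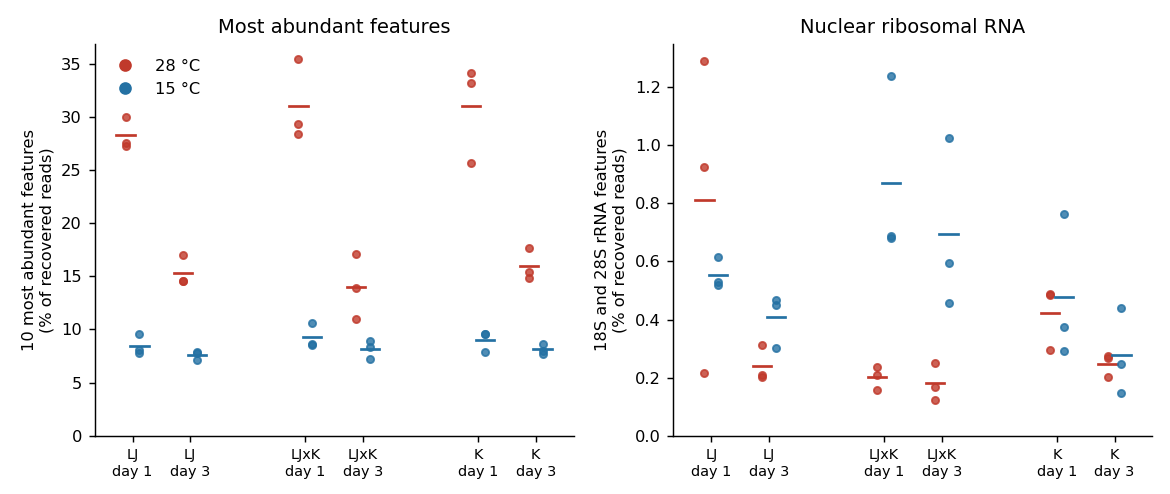
Percent of recovered reads in the 10 most abundant features (left) and in the 18S and 28S features (right) per library (points; lines are means of 3), by strain, day and temperature. On the left the 28 °C libraries come down from between 25.7% and 35.4% on day 1 to between 10.9% and 17.6% on day 3, still above the 15 °C libraries.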

How the data were processed

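Per the labels' protocols, gill RNA was depleted of ribosomal RNA and made into ScriptSeq libraries. The submitters' processing notes name CASAVA 1.8, Bowtie and edgeR. Which transcriptome, annotation and filters were used is not given in the sources used. In 1 table per strain, the authors deposited a normalised signal for every feature, which the sample descriptions call CPM. The authors' library table gives quality reads and matched reads in M and the matched percent. Reads were recovered by dividing each column by its smallest step; 100% of values were whole within 0.01 in all libraries used, and 3 reads, taken as the floor, equalled 0.222 to 1.44 units at 28 °C. That floor covers counting error only. Each column was tied to its group by name. The S number in a column name served as a replicate name and, in 1 alternative, as a block.

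Changes were tested with limma 3.58.1 (trended prior, R 4.3.3) on log2(value + 0.5) over all 23234 features, with calls at a Benjamini-Hochberg adjusted p under 0.05. The pooled fit had strain as a block; strain changes and their differences came from 6 group means over the same 18 libraries. Comparisons with 15 °C were fitted for each day on its own 18 libraries, on the authors' scale only. The difference of day changes was fitted on 36 libraries. On the recovered reads, edgeR 4.0.16 (quasi-likelihood) with the authors' effective library sizes served as an alternative and called 7377 features in the pooled comparison. The fits were tested on simulated reads with the same dispersion for every feature and no library that stands apart. That test therefore does not cover the uneven spread of these libraries. Named features are the 2 largest pooled rises and falls among called features with the same sign in all 3 strains, a mean of at least 5 and over 3 reads in every library (6038 were eligible), plus all 9 ribosomal RNA features. Members and lists were chosen with earlier results of these data known.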

Additional observations from a re-analysis of the deposited data

Results flagged for a closer look

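The day change differed between 28 °C and 15 °C in 3561 features (limma, adjusted p under 0.05). The difference, 28 °C minus 15 °C, was -7.18 on the log2 scale for g10530 (adjusted p = 4.54e-13) and -4.70 for g18929 (limma adjusted p = 7.51e-09). It was 3.52 for g24998 and 3.19 for singleton_rep_c77. These 4 features were named for their change at 28 °C, so their differences from 15 °C are largely fixed by that choice. Of the 9 ribosomal features, which were taken whatever they did, the 18S feature alone passed the test of a difference between the temperatures. It is given here because it passed, so it is no independent result. The 18S feature differed by -2.24 between the temperatures (limma adjusted p = 0.0251). That difference joins a change of -1.20 at 28 °C with one of 1.04 at 15 °C, neither of which passed alone (limma adjusted p = 0.0622 and 0.569). Its values spread widely within groups, as in LJ on day 1 at 28 °C, with 285, 106 and 15.1 units.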

How the results depend on the processing

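The pooled count lay between 6604 and 7866 over the fits that left out 1 library, and other settings kept it within 1.5 times, except scaling to the column total, with 13170. That scaling also gave 8628 in LJ, 6157 in the cross, 6280 in K and 9916 for the difference between temperatures, and it turned the change of 2 ribosomal features, rRNA_12S_2 to 0.094 and rRNA_12S_3 to 0.24. The shift of all values follows from the larger column sums of day 1. Fitted on its own 6 libraries, LJ had 733 calls and the cross 4163; fitted on all 24 of its libraries, the cross had 1404. The cause of these moves was not tested. With 1 library left out, counts ran from 1897 to 3874 in LJ, 1353 to 3095 in the cross, 1387 to 3195 in K, 42 to 96 at 15 °C and 3233 to 4277 for the difference between temperatures. The low counts at 15 °C came without LJ day 1 replicate 2 (46), LJ day 3 replicate 1 (47), K day 1 replicate 2 (45), K day 3 replicate 2 (45) or K day 3 replicate 3 (42). The share of the 10 most abundant features changed by -15.9 to -14.3 points. Lists chosen in the cross at 4-fold had medians of -2.34 in LJ and -2.35 in K for falls and 2.02 and 1.63 for rises. The 2-fold lists were also chosen and measured anew on the column-total scale, where they held 415 falls and 2687 rises. Their medians were -1.13 in LJ for falls, and 1.26 and 1.08 in LJ and K for rises. Without LJ day 1 replicate 1 the 924 falls chosen on the authors' scale had -1.42 in LJ. With lists chosen and measured on each strain's own 6 libraries, the rises had 0.94 in K. Both alternatives were chosen after seeing the data. Strain differences stayed at 0 calls in all of their 25 alternatives each. The 4 named features and both 28S features were called in 28 of 28 alternatives.

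With the S number of the column names as a replicate block, chosen after seeing the data, the counts were 6998 pooled, 2682 in LJ, 2010 in the cross and 2001 in K. Correlations between the deviations of same-numbered libraries ran from -0.35 to 0.36. With 3 libraries per group and an LJ library that stands apart, they cannot decide whether the numbers pair the samples. The numbers match no sample label and are therefore not taken as pairs. The shallow LJxK library at 15 °C on day 3, with 0.614 M reads, limits the control values of low features.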

Other observations

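A pair of sets of features that leave the line in the plot of strain against strain were chosen after their values were seen, and are described without a test. The first holds 89 features with a mean of at least 5 whose change in K was under -1.5 and at least 2 below that in LJ on the log2 scale; 15 were called in K and 1 in LJ, where 6.45% of all features were called lower in K; the set was chosen by this change, so nothing is read from the count. Their levels varied together among libraries of the same group. The median of the set, on the log2(value + 0.5) scale, was 4.70, 2.37 and 5.73 in the K libraries on day 1 at 28 °C and 3.39, 0.55 and 1.37 on day 3. In the cross on day 1 it was 1.11, 3.60 and 3.76. At 15 °C it ran from -1 to 4.41 over the libraries, and the extremes were replicates of the cross on day 3. The -1 is the lowest value this scale can take, and it came from replicate 1, with only 0.614 M reads. The spread within groups was thus as wide as the change in K.

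The second holds 250 features whose change was under -1.5 in LJ and within 0.5 of zero in K. Of these, 36 were called in LJ, where 6.31% of all features were called lower, and none in K. This set too was chosen by these changes, so nothing is read from the counts. The median of the set was 7.01 in LJ day 1 replicate 1, against 3.45 and 3.77 in the other LJ libraries of that day. At 15 °C the highest library median of this set, 4.60, was that of the cross on day 1, replicate 1. What these features encode cannot be read from their identifiers.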
